A study of Arabidopsis thaliana with 12 samples.

Results

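Plant cells grow by loosening a wall of cellulose tied together by xyloglucan, and the genes described here encode proteins that act in that wall. They are the 94 genes whose symbols begin with FLA, AGP, EXPA, EXPB, XTH, EXT, PRP or LRX and a number, that reached 1 FPKM (fragments per kilobase of transcript, scaled to library size) in at least 3 of 12 root libraries, and that are not EXPA7, EXPA18, LRX1, PRP3 or TCH4 (also XTH22). The members were taken from 23719 genes listed in any library, of which 18326 passed the same filter and entered the tests. Of 119 matching symbols, 98 passed the filter and 4 of those were left out by name, TCH4 having no matching symbol. By family there were 15 FLA, 26 AGP, 13 EXPA, 2 EXPB, 23 XTH, 7 EXT, 6 PRP and 2 LRX genes. All 94 were tested, and 87 of them were at or above 1 FPKM in all 12 libraries. At the edge of the filter, PRP40A passed with 4 libraries and XTH2 did not, with 2. FLA5 was the 1 member that reached 1 FPKM on MeJA alone, so it had to differ between media to be included.

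Expansins (EXPA and EXPB) let wall polymers slide at acid pH, and XTH enzymes cut and rejoin xyloglucan. Arabinogalactan proteins (AGP) and the fasciclin-like ones (FLA) are heavily glycosylated proteins of the cell surface, while extensins (EXT), leucine-rich repeat extensins (LRX) and proline-rich proteins (PRP) are structural wall proteins. Jasmonate, the hormone of wounding and defence, is known to slow root growth. Of the 94 genes, 90 belong to these families of wall and cell-surface proteins, of which EXT, LRX and PRP are structural rather than loosening or arabinogalactan proteins. PRP39, PRP40A, PRP40B and PRP40C carry the same 3 letters but are pre-mRNA-processing genes, and 0 of these 4 were called in either genotype in the fit over all 4 groups.

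The roots came from 5-day-old Arabidopsis thaliana seedlings, germinated at 22 °C on plates, of the accession Col or of the erf114 mutant. Each genotype was kept on MS medium or given methyl jasmonate (MeJA) for 3 h, which makes 4 groups of 3 libraries called Col MS, Col MeJA, erf114 MS and erf114 MeJA. The treatment protocol states 15 µM MeJA and the design text 50 µM, and the kind of mutation in erf114 is not given in the sources used here. Nothing states that replicates were grown as separate cultures, so all p-values measure the spread between these libraries, which may be technical. AT5G61890, the ERF114 locus, was at 3, 0 and 0 estimated counts in Col MS and 0, 1 and 1 in erf114 MS. It was at 59, 50 and 42 in Col MeJA and at 13, 13 and 10 in erf114 MeJA, so the mutant libraries were lower on MeJA and not at 0. The difference on MeJA was not called (-1.95 ± 0.39 (SE) on the log2 scale, edgeR adjusted p = 0.0713). In erf114 the locus rose on MeJA by 4.21 ± 0.75 (edgeR adjusted p = 0.0015). It passed the filter through the Col MeJA libraries alone.

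Each library held 20546417 to 20897031 estimated counts. Levels below are the deposited FPKM divided by the library's TMM factor (0.8165 to 1.137), which removes differences in composition between libraries and is called scaled FPKM. Col MS replicate 1 and erf114 MeJA replicate 3 stood apart on the second principal component (17.1% of variance), at -57.1 and -48.3 against -19.4 to 24.0 in the other 10. On the first component (59.4%) erf114 MS replicate 3 was at -34.6, against -54.4 to -50.1 in the other MS libraries. It was left out together with Col MS replicate 1 in an alternative fit. The summed level of 11 shoot photosynthesis markers, 0 of which were at 0 in every library, was 1582 in Col MS replicate 1 against 300.7 and 350.1 in its group. It was 997.9 in erf114 MeJA replicate 3 against 647.6 and 187.0, and it ran from 260.1 to 1080 in the other groups. The summed level of 13 root hair markers was likewise the highest of each group in these libraries, at 834.4 against 483.9 and 495.0, and at 628.1 against 513.9 and 516.3. Their part in the results was not tested. Counts of calls are given with and without Col MS replicate 1 and erf114 MeJA replicate 3, called below the libraries that stood apart. In whole roots, fewer cells of a type and less RNA per cell cannot be told apart.

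The members together carried 1.97 to 2.406% of all deposited FPKM in Col MS and 0.9913 to 1.191% in Col MeJA. In erf114 they carried 1.734 to 2.069% on MS and 1.18 to 1.527% on MeJA. The shares did not overlap between media within either genotype. The 26 AGP genes made up the largest summed level in every library and the 2 LRX genes or the 6 PRP genes the smallest. The XTH sum was 2655, 1957 and 1980 scaled FPKM in Col MS and 1074, 995.6 and 962.5 in Col MeJA. In erf114 it was 1995, 2062 and 2024 on MS and 1227, 1027 and 1235 on MeJA. In scaled FPKM, XTH was the 1 family of the 8 whose sums did not overlap between media in both genotypes. The scaled EXT sums overlapped in erf114, where MeJA replicate 3 (2329) lay above MS replicate 3 (2225). That MeJA library had the lowest TMM factor (0.8165). In deposited FPKM the EXT sums did not overlap between media in either genotype. There erf114 MeJA replicate 3 was at 1901 and erf114 MS replicate 3 at 2481. The AGP sum was 16910 in Col MS replicate 1 against 8865 and 9320 in the other Col MS libraries, and 10700 in erf114 MeJA replicate 3 against 7244 and 5882.

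**Figure D1:**
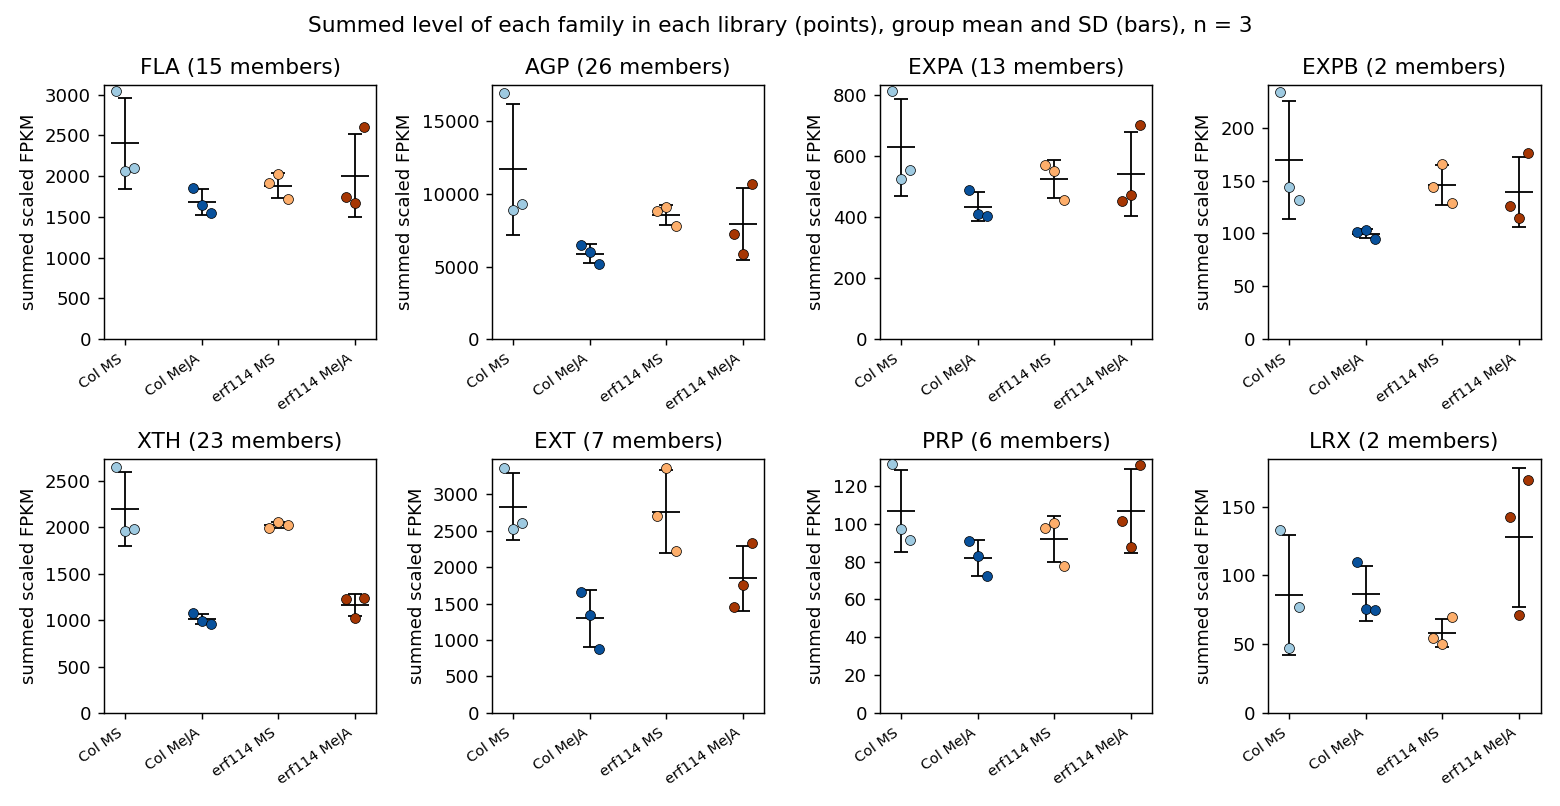
Summed scaled FPKM of each wall gene family (vertical axis, from 0) in the 4 groups. Points are libraries in replicate order, the long bar is the group mean and the whiskers the SD (n = 3); in the AGP panel the first Col MS library (16910) and the third erf114 MeJA library (10700) lie above the rest of their groups.

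MeJA against MS in Col addresses how wild-type roots respond to the hormone. After 3 h, the members fell far more often than they rose: 45 were lower and 3 higher, and 46 were not called (edgeR adjusted p under 0.05). Over all genes tested 22.0% were called, 11.5% lower and 10.4% higher, whereas 47.9% of the members were lower. Of the 45, 38 fell at least 2-fold, a size that 5.0% of all genes reached. The median log2 fold change of the members was -0.88 and that of all genes -0.00. In 62 members the 3 MeJA libraries lay below all 3 MS libraries, which held for 20.3% of all genes, and in 4 they lay above, against 19.1%. The 3 members that rose were XTH20, EXPA17 and FLA5, the last of which passed the filter on MeJA alone.

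Without Col MS replicate 1 the count in Col was 33 lower and 2 higher with a median of -0.54, and without both libraries that stood apart it was 37 lower and 6 higher. Without Col MeJA replicate 3 it was 30 lower and 2 higher. With the replicate number as a block it was 45 lower and 2 higher, and with that block in a fit of the Col libraries alone, chosen after seeing the data, 63 lower and 5 higher. Of the 45 calls, 30 held whichever of the 12 libraries was left out. Calls over all genes moved as well. Fits without 1 library gave 1362 to 2311 genes lower and 1452 to 2060 higher in Col, against 2114 and 1912 with all 12 libraries.

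**Figure D2:**
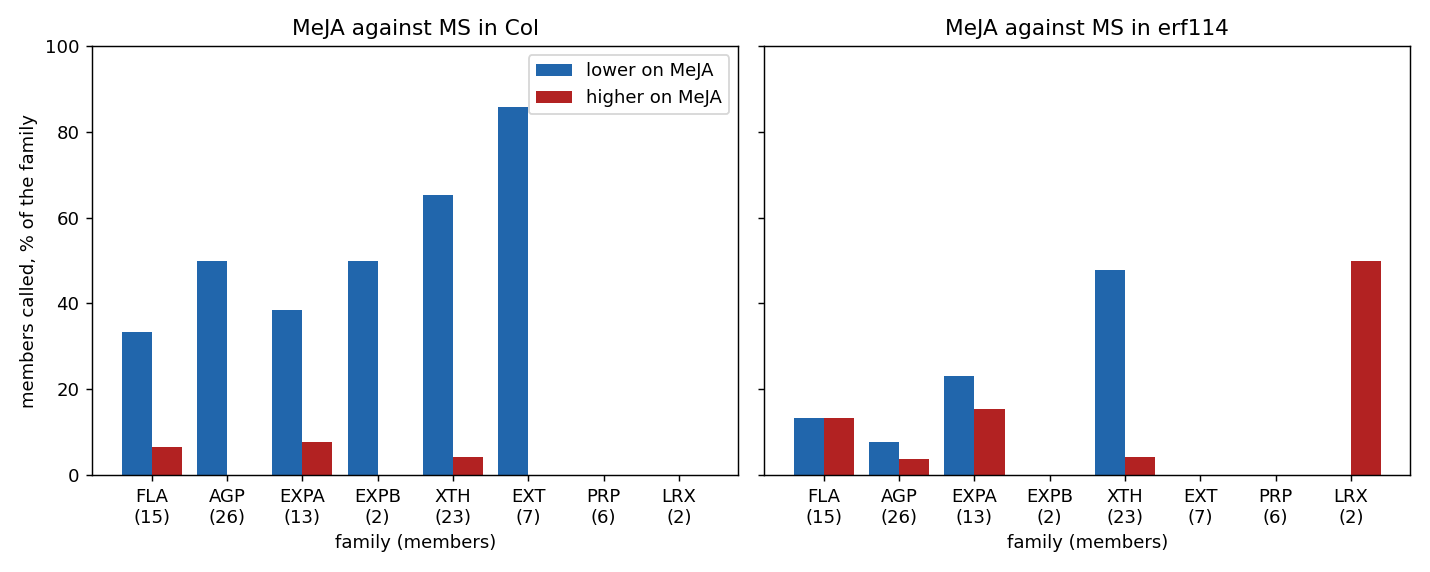
Share of each family (vertical axis, %) called lower (blue) or higher (red) on MeJA at an edgeR adjusted p under 0.05, in Col and in erf114. In Col 15 of 23 XTH and 6 of 7 EXT genes were lower; in erf114 11 of 23 XTH and 0 of 7 EXT genes were.

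Of 23 XTH genes 15 were lower and 1 higher in Col. XTH31 (AT3G44990, chromosome 3, 16446935 to 16448844 on TAIR10.1), known for xyloglucan hydrolase activity, was at 566.7, 537.9 and 496.6 scaled FPKM in Col MS and at 83.32, 88.55 and 79.14 in Col MeJA. It was the most abundant XTH on MS, and every MS library was above every MeJA library. It fell by 2.68 ± 0.12 (SE) on the log2 scale, 6.40-fold (edgeR adjusted p = 2.18e-08). XTH17, XTH18, XTH19 and XTH20 form 1 closely related group known to be expressed in roots, and they did not move together. XTH19 (AT4G30290, chromosome 4, 14828712 to 14830224) was at 64.61, 73.2 and 72.59 scaled FPKM in Col MS and at 21.82, 22.19 and 21.87 in Col MeJA, a fall of 1.68 ± 0.10 (edgeR adjusted p = 3.27e-07). XTH17 (AT1G65310) went from 85.97 ± 6.64 (SD, n = 3) to 41.51 ± 2.66, a fall of 1.06 ± 0.12 (edgeR adjusted p = 5.94e-05).

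XTH20 (AT5G48070, chromosome 5, 19481897 to 19483527) moved the other way. It was at 46.91, 43.31 and 37.28 scaled FPKM in Col MS and at 113.9, 115.4 and 112.7 in Col MeJA, with no overlap and little spread on MeJA. It rose by 1.42 ± 0.11 on the log2 scale (edgeR adjusted p = 1.91e-06). XTH19 and XTH20 are both known for a role in rejoining cut stems. XTH18 (AT4G30280), which lies 1500 bases from XTH19 on the same strand, was at 125.4, 75.85 and 101.3 scaled FPKM in Col MS and 95.93, 64.97 and 73.92 in Col MeJA. These groups overlapped and XTH18 was not called (-0.37 ± 0.33, edgeR adjusted p = 0.449). Within each replicate number the MeJA library was the lower, and with the replicate block in a fit of the Col libraries alone XTH18 was called (-0.36 ± 0.10, edgeR adjusted p = 0.0316), as were XTH7 and XTH30, whereas with the block over all 4 groups it was not (edgeR adjusted p = 0.355). The difference between XTH18 and XTH19 was not tested.

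Other XTH falls in Col ran from XTH13 (-2.02 ± 0.21, edgeR adjusted p = 2.12e-05) to XTH15 (-0.74 ± 0.14, edgeR adjusted p = 0.0026). XTH13 went from 27.57 ± 2.59 to 6.83 ± 0.88 scaled FPKM. Its neighbour XTH12, 1097 bases away, fell by 1.56 ± 0.21. XTH5 fell by 1.86 ± 0.22, XTH33, whose protein is anchored in the plasma membrane, by 1.60 ± 0.23, and XTH9 by 0.98 ± 0.14. The 7 XTH genes not called were XTH7, XTH10, XTH18, XTH21, XTH24, XTH30 and XTH32. XTH24, known as MERI5, was at 40.48 ± 17.46 on MS and 31.62 ± 3.20 on MeJA.

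**Figure D3:**
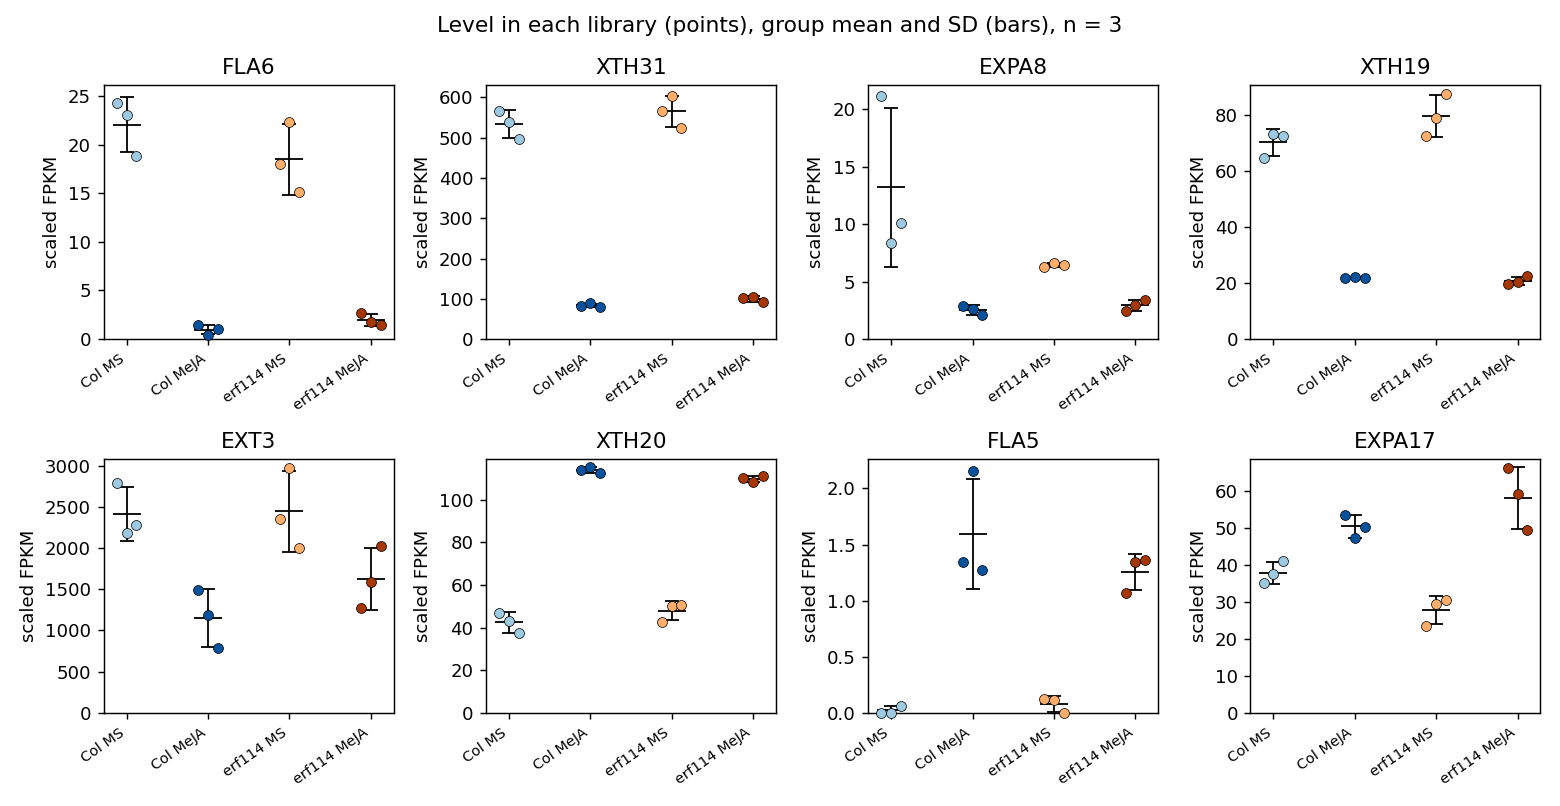
Scaled FPKM (vertical axis, from 0) of 8 members in each library of the 4 groups, with the group mean (long bar) and SD (whiskers, n = 3). XTH31, XTH19 and FLA6 were lower in every MeJA library of both genotypes, and XTH20, FLA5 and EXPA17 were higher.

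Of 13 alpha-expansins, 5 were lower and 1 higher on MeJA in Col. EXPA4 (AT2G39700, chromosome 2, 16543832 to 16545746) was at 127.5, 64.19 and 71.63 scaled FPKM on MS and at 27.58, 22.21 and 21.05 on MeJA. The first MS library was the highest and no library overlapped between media. EXPA4 fell by 1.90 ± 0.26 on the log2 scale (edgeR adjusted p = 0.000208). EXPA8 (AT2G40610) was at 21.16, 8.329 and 10.09 on MS and at 2.921, 2.651 and 2.099 on MeJA, a fall of 2.37 ± 0.32 (edgeR adjusted p = 0.000162), and again the first MS library was highest. EXPA6, EXPA11 and EXPA12 also fell, by 1.28, 0.91 and 1.08. The EXPA11 call was lost without Col MeJA replicate 2 or 3 (edgeR adjusted p = 0.0526 to 0.0604), and the EXPA12 call in 4 of 12 fits without 1 library.

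EXPA17 (AT4G01630, chromosome 4, 700566 to 701769), known for a part in lateral root formation, rose. It was at 35.15, 37.41 and 40.96 scaled FPKM on MS and at 53.56, 47.2 and 50.32 on MeJA in Col, and the groups did not overlap. The rise was 0.41 ± 0.13 (edgeR adjusted p = 0.0475), and it was not called in 8 of 12 fits that left out 1 library, with the replicate block over all 4 groups (edgeR adjusted p = 0.0656), or with limma. EXPA9, the most abundant expansin, was at 147.8 ± 35.4 on MS and 127.4 ± 17.4 on MeJA and was not called (edgeR adjusted p = 0.431). Of the 2 beta-expansins EXPB1 fell by 1.25 ± 0.19 (edgeR adjusted p = 0.000516), while EXPB3 was at 108.7 ± 44.9 and 74.13 ± 1.96 and was not called (edgeR adjusted p = 0.114).

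Among the 15 FLA genes 5 were lower and 1 higher in Col. This family held both extremes of all members, the upper one being FLA5, which passed the filter on MeJA alone. FLA6 (AT2G20520, chromosome 2, 8840557 to 8841565, 1 exon) was at 24.3, 23.01 and 18.85 scaled FPKM in Col MS and at 1.455, 0.4748 and 1.035 in Col MeJA. Each MeJA library held 20, 7 or 15 estimated counts of FLA6, against 318, 384 and 299 on MS. FLA6 fell by 4.49 ± 0.32 on the log2 scale, 22.4-fold (edgeR adjusted p = 9.17e-07). FLA13 (AT5G44130) went from 116.2 ± 40.8 to 33.2 ± 4.32, a fall of 1.81 ± 0.24 (edgeR adjusted p = 0.000129). FLA9, the most abundant, went from 754.7 ± 165.7 to 464.7 ± 51.7, a fall of 0.71 ± 0.20 (edgeR adjusted p = 0.0225), a call lost without Col MS replicate 1 and without Col MeJA replicate 2 or 3. FLA11 and FLA12, known from secondary walls of stems, were not called (-0.21 ± 0.14 and -0.82 ± 0.34), though FLA12 was with the replicate block in the Col libraries alone (edgeR adjusted p = 0.00289).

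FLA5 (AT4G31370, chromosome 4, 15223655 to 15224685) was nearly silent on MS and rose to a low level on MeJA. It held 0, 0 and 1 estimated counts in Col MS and 19, 33 and 19 in Col MeJA. Per unit of scaled depth the 71 counts on MeJA were 75.0 times the 1 count on MS, with a 95% exact counting interval of 13 to 3000. In erf114 it held 2, 2 and 0 counts on MS and 15, 20 and 17 on MeJA, a ratio of 15.9 with an interval of 5.86 to 60.7. Intervals cover counting error only. The edgeR adjusted p was 6.25e-05 in Col and 0.000362 in erf114. FLA5 passed the filter through its MeJA libraries alone, so the ratios and p-values are not independent evidence of its rise.

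Of 26 AGP genes 13 were lower and 0 higher in Col, all 13 by at least 2-fold, and the family median was -1.07. AGP14 (AT5G56540, chromosome 5, 22893151 to 22893651), a short arabinogalactan peptide and the most abundant AGP, was at 2808, 1478 and 1770 scaled FPKM on MS and at 992.9, 866.8 and 844.6 on MeJA. It fell by 1.2 ± 0.23 on the log2 scale with no overlap (edgeR adjusted p = 0.00249). AGP30 (AT2G33790), a root AGP with an added cysteine-rich domain, was at 685.7, 349.7 and 454.0 on MS and at 171.2, 124.3 and 117.2 on MeJA, a fall of 1.86 ± 0.27 (edgeR adjusted p = 0.000312). Its relative AGP31, known to be repressed by MeJA, went from 652.6 ± 224.2 to 262.8 ± 58.1, a fall of 1.33 ± 0.35 (edgeR adjusted p = 0.0157), a call lost without Col MS replicate 1 and without Col MeJA replicate 3 (edgeR adjusted p = 0.0629 to 0.0763). The lysine-rich AGP17 fell by 1.98 ± 0.37, from 5.30 ± 1.87 to 1.34 ± 0.37 (edgeR adjusted p = 0.002), while its relatives AGP18 and AGP19 were at 0.06 ± 0.29 and -0.03 ± 0.35.

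By type, 5 of 10 arabinogalactan peptides, 5 of 11 classical AGP genes, 1 of 3 lysine-rich and 2 of 2 chimeric ones were lower in Col. AGP10, a classical AGP, was at 252.8 ± 142.1 on MS and 291.1 ± 19.9 on MeJA and was not called (edgeR adjusted p = 0.773). Without Col MS replicate 1, 8 AGP genes were lower with a family median of -0.63, whereas 14 XTH genes were, with a median of -0.94.

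Of 7 extensins 6 were lower in Col and the seventh, EXT10, lay below 0 (-0.99 ± 0.38, edgeR adjusted p = 0.0885), and was called with the replicate block in the Col libraries alone (edgeR adjusted p = 0.0015). EXT3 (AT1G21310, chromosome 1, 7453245 to 7455009), the extensin needed for cell plate formation in the embryo, was at 2790, 2182 and 2275 scaled FPKM on MS and at 1490, 1190 and 787.1 on MeJA. All MS libraries lay above all MeJA libraries, and EXT3 fell by 1.07 ± 0.25 on the log2 scale (edgeR adjusted p = 0.00859). EXT4 went from 240.6 ± 74.9 to 74.52 ± 14.31, a fall of 1.70 ± 0.28 (edgeR adjusted p = 0.000863). EXT6 and EXT11 were the 2 members with fractional counts, so reads may be split between near copies. Without Col MS replicate 1, 3 of 7 extensins were lower. Neither the 2 LRX genes nor the 6 PRP genes were called in Col, although the block in the Col libraries alone called PRP1 and PRP4 lower and PRP40B and PRP40C higher. LRX3, which binds RALF peptides in the wall, was at 75.07 ± 39.87 and 79.31 ± 18.63.

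**Figure D4:**
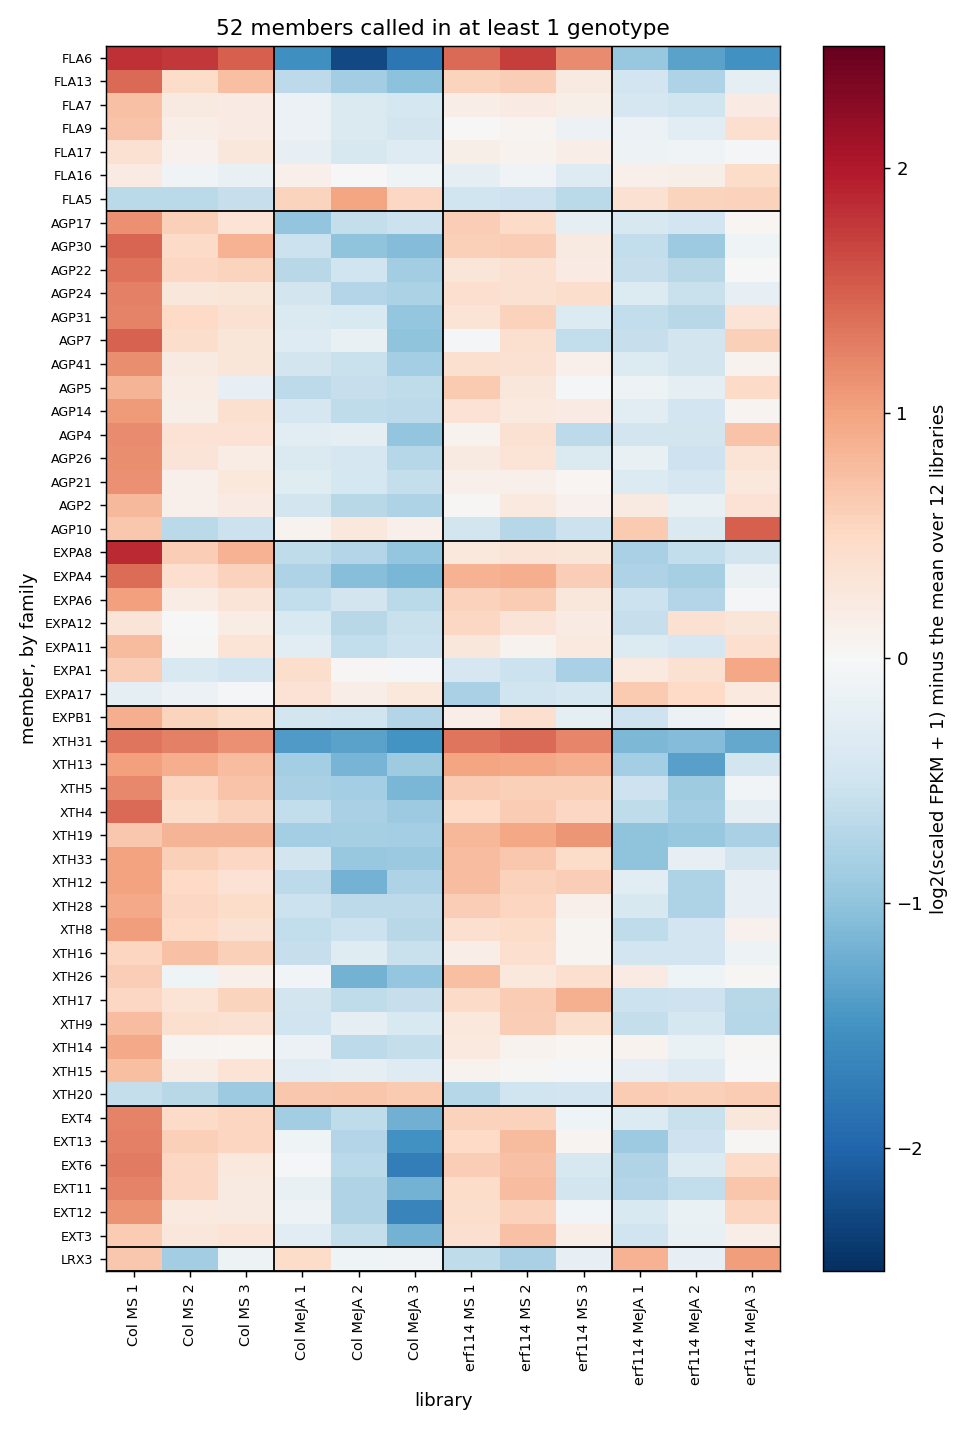
Log2(scaled FPKM + 1) minus its mean over the 12 libraries (colour) for the 52 members called in at least 1 genotype, by family and ordered by the Col response. XTH31, XTH19 and FLA6 are low in all 6 MeJA libraries, while most AGP genes are highest in Col MS replicate 1 and near or above their mean in erf114 MeJA replicate 3.

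The genes themselves differed in structure by family, as read from the TAIR10.1 annotation. Each XTH gene had 3 or 4 exons and each AGP gene 1 or 2, and the median of the longest transcript was 1263 bases for XTH, 849.5 for AGP and 1746 for FLA. A gene on the opposite strand overlapped 14 members, AGP10, EXT3 and FLA16 among them, and whether counting used strand is not stated, so reads of these pairs cannot be told apart. Of the members, 3 pairs lay within 10000 bases of each other: XTH24 with XTH18, XTH18 with XTH19, and XTH12 with XTH13.

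Promoters were read from the TAIR10.1 genome for some members. Those on which the comparisons turn were FLA6 with the largest fall, XTH19 beside its uncalled neighbour XTH18, and XTH20 and FLA5 which rose. AGP2, which differed between genotypes under some settings, was another. EXPA6 was also shown, though no comparison turned on it. Each line gives the 250 bases before the gene's annotated start, 5′ to 3′ on the gene's strand, at chr2:8840307-8840556 (FLA6, plus), chr4:14830225-14830474 (XTH19, minus), chr4:14827212-14827461 (XTH18, minus), chr5:19481647-19481896 (XTH20, plus), chr4:15224686-15224935 (FLA5, minus), chr2:9538964-9539213 (AGP2, minus) and chr2:12433797-12434046 (EXPA6, minus). Capitals mark matches on either strand to 5 motifs. The first is the G-box, which MYC factors of the jasmonate pathway bind, spelled CACGTG. The core that ERF factors bind is GCCGCC. An auxin response element reads TGTCTC. The W box core of WRKY factors reads TTGAC. The TATA motif searched was TATAAA, and matches may overlap.
FLA6: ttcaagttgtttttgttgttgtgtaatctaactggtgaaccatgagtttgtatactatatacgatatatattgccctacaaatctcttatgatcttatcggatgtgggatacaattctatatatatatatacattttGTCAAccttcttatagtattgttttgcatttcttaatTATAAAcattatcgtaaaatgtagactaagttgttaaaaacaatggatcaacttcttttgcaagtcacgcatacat
XTH19: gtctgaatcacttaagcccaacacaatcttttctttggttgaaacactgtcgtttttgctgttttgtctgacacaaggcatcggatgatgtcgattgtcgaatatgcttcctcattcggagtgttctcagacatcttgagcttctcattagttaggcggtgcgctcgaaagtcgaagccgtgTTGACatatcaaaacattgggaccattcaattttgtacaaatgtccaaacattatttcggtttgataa
XTH18: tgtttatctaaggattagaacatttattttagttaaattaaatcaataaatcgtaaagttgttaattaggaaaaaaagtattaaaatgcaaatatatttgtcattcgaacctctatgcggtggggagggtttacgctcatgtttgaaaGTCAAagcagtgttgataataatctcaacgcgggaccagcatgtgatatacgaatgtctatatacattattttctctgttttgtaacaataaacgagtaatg
XTH20: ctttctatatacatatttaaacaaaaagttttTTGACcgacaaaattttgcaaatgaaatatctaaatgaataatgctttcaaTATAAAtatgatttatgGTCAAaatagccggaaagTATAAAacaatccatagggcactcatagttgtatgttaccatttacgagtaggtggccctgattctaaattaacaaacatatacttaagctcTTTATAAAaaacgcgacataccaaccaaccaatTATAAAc
FLA5: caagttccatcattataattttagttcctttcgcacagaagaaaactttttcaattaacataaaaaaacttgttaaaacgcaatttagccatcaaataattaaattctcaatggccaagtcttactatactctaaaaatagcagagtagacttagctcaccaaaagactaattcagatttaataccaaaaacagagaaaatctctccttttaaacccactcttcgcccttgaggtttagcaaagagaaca
AGP2: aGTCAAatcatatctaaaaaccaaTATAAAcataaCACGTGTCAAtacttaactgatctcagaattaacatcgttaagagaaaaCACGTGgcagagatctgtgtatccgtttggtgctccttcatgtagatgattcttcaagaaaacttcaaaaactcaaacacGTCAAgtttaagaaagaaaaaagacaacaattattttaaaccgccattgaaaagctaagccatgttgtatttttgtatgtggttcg
EXPA6: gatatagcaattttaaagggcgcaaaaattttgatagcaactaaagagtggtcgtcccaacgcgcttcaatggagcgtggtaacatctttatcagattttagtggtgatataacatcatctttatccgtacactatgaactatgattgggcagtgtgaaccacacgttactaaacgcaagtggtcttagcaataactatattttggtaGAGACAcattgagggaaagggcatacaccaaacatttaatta
AGP2 held 2 G-boxes, the first of which runs into a W box core, EXPA6 held 1 auxin element, XTH20 held 5 TATA motifs and 2 W box cores, and FLA5 held none of the 5 motifs. Over all 94 members 3 promoters held a G-box, those of AGP2, PRP40B and PRP40C, or 3.19%, against 7.47% of 18325 tested genes with such a window. GCCGCC was in 0 of 94 member promoters and in 1.97% of all. TGTCTC was in 7.45% against 10.6%, TTGAC in 37.2% against 45.2% and TATAAA in 48.9% against 46.7%. Of the 45 members lower in Col, 1 held a G-box, 15 a W box core and 24 a TATA motif. Matches describe these letters in these windows and no more.

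MeJA against MS in erf114 asks whether the same genes respond in the mutant. In erf114 18 members were lower and 7 higher, where 18.8% of all genes were called, 8.59% lower and 10.2% higher; 19.1% of the members were lower. All 18 were also lower in Col, which is 40.0% of the 45 there, and XTH20, FLA5 and EXPA17 rose in both genotypes, EXPA17 in Col by the unstable call described above. AGP10, EXPA1, FLA16 and LRX3 were called higher in erf114 and not in Col. The median log2 fold change of the members was -0.12, against -0.01 for all genes. In 24 members the MeJA libraries lay below all MS libraries, which held for 16.7% of all genes, and in 12 they lay above, against 15.9%.

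The count in erf114 depended on which libraries were left out, and not on those that stood apart alone. Without both libraries that stood apart it was 31 lower and 8 higher with a median of -0.34. Without erf114 MeJA replicate 3 alone it was 20 lower and 3 higher. Leaving out erf114 MS replicate 1 gave 15 lower and 4 higher, and leaving out erf114 MS replicate 2 gave 13 lower and 6 higher. Without Col MS replicate 1, which enters this contrast only through the shared estimate of spread, it was 22 lower and 12 higher. Over all genes, fits without 1 library gave 1145 to 1920 lower and 1428 to 2189 higher in erf114, against 1575 and 1863 with all 12 libraries. On deposited FPKM with no rescaling between libraries, limma on log2(FPKM + 1) called 38 lower and 4 higher, with the median of all genes shifted to -0.28.

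**Figure D5:**
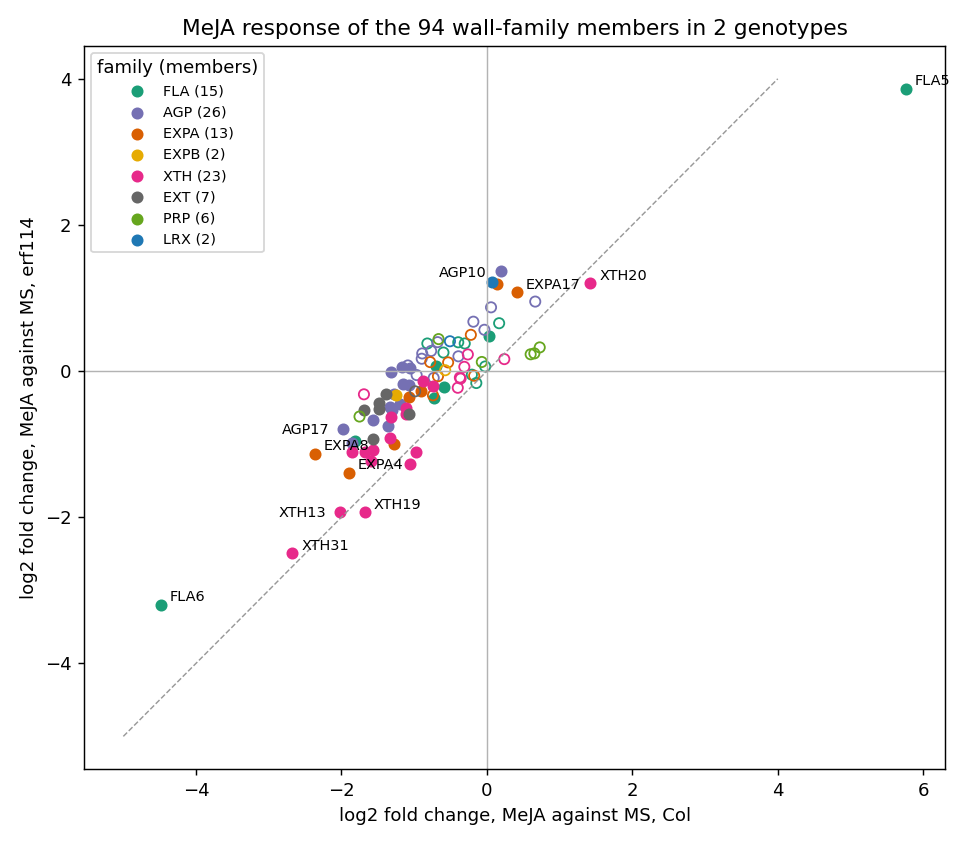
Log2 fold change on MeJA in Col (horizontal) and in erf114 (vertical) for the 94 members, coloured by family and filled where called in at least 1 genotype; the dashed line marks equal change. XTH31, XTH19, XTH13 and XTH20 lie near the line, and most AGP and EXT genes lie above it, toward 0 in erf114.

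XTH genes again held most of the falls, 11 of 23, with a family median of -0.59; over all members 12 fell at least 2-fold, a size that 3.76% of all genes reached. XTH31 was at 567.3, 603.5 and 524.5 scaled FPKM in erf114 MS and at 102.1, 105.4 and 92.33 in erf114 MeJA, a fall of 2.49 ± 0.11 (edgeR adjusted p = 3.09e-08). XTH19 was at 72.28, 78.72 and 87.24 on MS and at 19.56, 20.32 and 22.36 on MeJA, a fall of 1.93 ± 0.10 (edgeR adjusted p = 1.08e-07). In both genes the groups were far apart, as in Col. XTH20 was at 42.75, 50.05 and 50.85 on MS and at 110.2, 108.3 and 111.0 on MeJA, a rise of 1.2 ± 0.11 (edgeR adjusted p = 7.26e-06). XTH13, XTH17, XTH33, XTH9 and XTH5 fell by 1.92, 1.27, 1.23, 1.11 and 1.11, and all 7 of these falls and the rise held under every alternative tried.

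FLA6 was at 17.99, 22.34 and 15.09 scaled FPKM in erf114 MS and at 2.661, 1.796 and 1.482 in erf114 MeJA. It fell by 3.20 ± 0.29 on the log2 scale, 9.20-fold (edgeR adjusted p = 7.26e-06), and it remained the largest fall among the members. FLA13 fell by 0.95 ± 0.23 (edgeR adjusted p = 0.0112). EXPA4 was at 88.53, 90.49 and 73.96 on MS and at 27.51, 26.4 and 42.27 on MeJA, a fall of 1.39 ± 0.26 (edgeR adjusted p = 0.00201). EXPA8 fell by 1.13 ± 0.31 (edgeR adjusted p = 0.0241), a call lost in 5 of 12 fits without 1 library.

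EXPA17 was at 23.45, 29.29 and 30.47 scaled FPKM in erf114 MS and at 66.02, 58.99 and 49.36 in erf114 MeJA. It rose by 1.08 ± 0.14 on the log2 scale (edgeR adjusted p = 0.000103), and the MS libraries all lay below the MeJA ones. EXPA1, known from guard cells, went from 17.39 ± 2.40 to 39.79 ± 11.53, a rise of 1.2 ± 0.30 (edgeR adjusted p = 0.0127), which was not called without erf114 MeJA replicate 3. AGP10 was at 189.6, 158.0 and 180.1 on MS and at 412.0, 202.3 and 733.8 on MeJA, a rise of 1.36 ± 0.42 (edgeR adjusted p = 0.0416) with replicate 2 the lowest on MeJA. LRX3 was at 47.05, 41.37 and 63.69 on MS and at 135.9, 63.27 and 153.7 on MeJA, so its groups overlapped (1.22 ± 0.39, edgeR adjusted p = 0.0487). The AGP10 call was lost in 8 of 12 fits without 1 library, the LRX3 call in 9 and both with limma. FLA16 (0.48 ± 0.14, edgeR adjusted p = 0.0293) was lost in 3 of 12 and with limma.

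In erf114 2 of 26 AGP genes were called lower (7.69%) and 1 higher (3.85%), against 8.59% and 10.2% of all genes. Among AGP genes AGP30 and AGP24 fell, by 0.99 ± 0.26 and 0.76 ± 0.24, and the family median was 0.01, or -0.41 without erf114 MeJA replicate 3. The AGP30 call was lost in 4 of 12 fits without 1 library and with the block in the erf114 libraries alone, and the AGP24 call in 9 of 12 and with median-of-ratios scaling. AGP14 was at 1720, 1580 and 1533 scaled FPKM in erf114 MS and at 1104, 955.1 and 1399 in erf114 MeJA, lower without overlap and not called (-0.45 ± 0.23, edgeR adjusted p = 0.228). Of 7 extensins 0 were called with edgeR, where 18.8% of all genes were. An unadjusted p under 0.05 was found for 2 of the 7, and for 5180 of 18326 genes. EXT3 was at 2354, 2974 and 2003 on MS and at 1275, 1585 and 2019 on MeJA, where the third MeJA library reached the MS range (-0.58 ± 0.25, edgeR adjusted p = 0.143). Without both libraries that stood apart, 7 AGP genes and 3 extensins were lower in erf114.

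The difference between the responses of the genotypes was tested as an interaction, and 0 of 94 members were called, with a smallest edgeR adjusted p of 0.629; over all genes 0.0273% were called. At an unadjusted p under 0.05 there were 34 of 94 members, all with a higher log2 fold change on MeJA in erf114 than in Col. Over all genes there were 1107 of 18326, 747 above 0 and 360 below. DESeq2 and limma also called 0 members. The interaction was above 0 in 84 of 94 members and in 49.2% of all genes, with a median of 0.68. By family the median was 0.90 for AGP, 0.97 for EXT and 0.37 for XTH. Without both libraries that stood apart the median over the members was 0.18, with 73 above 0 and 6 at an unadjusted p under 0.05, and the family medians were 0.21, 0.15 and 0.16. So the smaller responses of AGP and EXT genes in erf114 were not shown to differ from those in Col. For XTH31 the interaction was 0.18 ± 0.15, for XTH19 -0.25 ± 0.14 and for XTH20 -0.22 ± 0.15.

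On MS 0 of 94 members were called between erf114 and Col, where 0.0327% of all genes were, and DESeq2 and limma also called 0. At an unadjusted p under 0.05 there were 9 of 94 members, all lower in erf114, and 700 of 18326 genes, 284 of them lower. Of the 94 members 75 lay below 0, with a median of -0.28. Without Col MS replicate 1 the median was -0.02, with 50 below and 44 above 0 and 5 at an unadjusted p under 0.05. EXPA8 had the smallest unadjusted p among the members, with 21.16, 8.329 and 10.09 scaled FPKM in Col and 6.318, 6.658 and 6.466 in erf114 (-1.02 ± 0.29, edgeR adjusted p = 0.853). EXPA17 was lower in all 3 erf114 MS libraries than in all 3 Col MS libraries (-0.45 ± 0.13, edgeR adjusted p = 0.853). In 13 members the erf114 libraries lay below all Col libraries, which held for 4.63% of all genes, and in 0 members they lay above, against 5.22%. Over all genes 0.0218% were called lower and 0.0109% higher.

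On MeJA 0 of 94 members were called between the genotypes with edgeR, where 0.382% of all genes were. An unadjusted p under 0.05 was found for 14 members, all higher in erf114, and for 1572 of 18326 genes, 1011 of them higher. The members' median was 0.39, with 87 above 0. Without erf114 MeJA replicate 3 it was 0.13, with 70 above 0 and 8 at an unadjusted p under 0.05, and without Col MeJA replicate 3 there were 3 at that p. Over all genes 0.327% were called higher and 0.0546% lower. The erf114 libraries lay above all Col libraries in 11 members, which held for 7.16% of all genes, and below them in 1, against 8.64%. AGP2 (AT2G22470, chromosome 2, 9538127 to 9538963) was at 245.3, 206.8 and 195.9 scaled FPKM in Col MeJA and at 392.5, 295.1 and 432.3 in erf114 MeJA, so the groups did not overlap. The difference was 0.81 ± 0.20 on the log2 scale (edgeR adjusted p = 0.157). DESeq2 called it (0.82, adjusted p = 0.0163), as did limma on log2(FPKM + 1) (0.66, adjusted p = 0.0342) and edgeR without Col MS replicate 1 (0.81, adjusted p = 0.0308). On MS AGP2 was at 586.2, 364.5 and 386.6 in Col and at 344.2, 396.6 and 360.8 in erf114, where the groups overlapped. XTH31 was at 83.67 ± 4.71 in Col MeJA and 99.93 ± 6.79 in erf114 MeJA (0.27 ± 0.11, edgeR adjusted p = 0.519).

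Other wall genes were listed by function, where 22.0% of all genes were called in Col and 18.8% in erf114. Of 4 expansin-like genes, EXLA2 fell in both genotypes, by 3.25 ± 0.23 in Col and 2.19 ± 0.22 in erf114, and EXLB1 rose in both, by 1.25 ± 0.19 and 1.69 ± 0.20. Of 12 xyloglucan synthesis genes matched from 13 listed, 1 was called in Col (CSLC5, higher) and 0 in erf114. Of 16 listed glycosyltransferases that build arabinogalactan only 9 could be matched to a gene. Among these 1 was higher in Col (FUT6) and 1 lower in erf114 (GLCAT14B). Of 12 listed genes of proline hydroxylation and extensin arabinosylation 6 could be matched and 5 were tested, of which P4H5 was higher in Col. Of 9 primary wall cellulose genes tested from 12 listed, GH9A1, the KORRIGAN endoglucanase, was lower in both genotypes (-0.39 ± 0.10 and -0.37 ± 0.10) and CTL1 in Col (-0.37 ± 0.11).

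Of 11 genes of wall acidification and sensing, 4 were lower and 1 higher in Col, and 2 lower and 1 higher in erf114. Over all genes 11.5% were lower and 10.4% higher in Col, and 8.59% and 10.2% in erf114. AHA2 (HA2 in the files), the main root proton pump that acidifies the wall, went from 844.6 to 383.2 scaled FPKM in Col and from 740.1 to 349.8 in erf114. It fell by 1.14 ± 0.16 and 1.08 ± 0.16 (edgeR adjusted p = 0.000216 and 0.000351). The peptide genes RALF1, RALFL22 and RALF23 fell in Col, by 0.48, 0.73 and 1.05, and were at -0.14, -0.32 and 0.18 in erf114, none called. The receptor kinase gene HERK1 rose in both, by 0.39 and 0.45. The 5 genes left out by name, EXPA7, EXPA18, LRX1, PRP3 and TCH4, were not called in either genotype, and their median was -0.23 in Col and 0.19 in erf114. Of 13 root hair markers, which include 4 of these, 3 were higher and 1 lower in Col and 0 called in erf114, and 2 of 3 root cap markers were lower in Col. These small counts were not tested against the shares of all genes. None of 9 xylem and 11 photosynthesis markers was called in either genotype, 1 of 5 root markers (PYK10) rose in both, and 1 of 7 tested seed storage genes (SESA4) rose in erf114. The summed seed storage level was 4.732 to 10.64 in the Col libraries, 4.977 in erf114 MS replicate 1 and 60.76 to 129.3 in the other 5 erf114 libraries, and its part in the results was not tested.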

How the data were processed

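RNA of 12 root libraries was sequenced, in 4 groups of 3. Per the file headers, the authors deposited for each library an estimated count, an FPKM and a TPM value per gene; TPM was not used. The aligner, counter, strand setting and build are not named in the sources used here. Library totals differed little, and 1.542 to 1.718% of counts were fractional, so counts were rounded. Precision rests on this depth and on 3 libraries a group.

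Genes at 1 FPKM or more in at least 3 libraries (18326) entered edgeR 4.0.16 (R 4.3.3) with TMM factors, 1 fit over all 4 groups with 8 residual degrees of freedom and quasi-likelihood tests, Benjamini-Hochberg adjusted over all genes at 0.05. The biological coefficient of variation was 17.906%. An SE belongs to a log2 fold change and an SD to a mean of 3 levels. The edgeR step was tested on simulated counts with known changes in Col MeJA, for MeJA against MS in Col alone. The other comparisons, the alternatives and the other steps were not tested in this way. DESeq2 1.42.0, limma 3.58.1 on log2(FPKM + 1) or log2(FPKM + 0.1), other filters and scalings, single libraries left out and a replicate block were alternatives.

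Members and lists were chosen with earlier results of these data known. Named were, per comparison, up to 10 called members at each end of the log2 fold changes, the most abundant member of each family, and genes of the described lists; other members given values were chosen after their values were seen. The main fit used no pairing, and the labels give replicate numbers only. Deviations of libraries with the same number correlated above 0.1 in every pair between media in Col (0.225 to 0.427). The same held between genotypes on MS (0.187 to 0.289), and not for every pair in the other comparisons. The replicate block was run in all comparisons as an alternative. Gene positions came from TAIR10.1.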

Additional observations from a re-analysis of the deposited data

How the results depend on the processing

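Of 94 members, 48 were called in Col and 25 in erf114; leaving out 1 library gave 32 to 52 and 19 to 34. In erf114 limma called 41 with a pseudocount of 0.1 and 42 with 1, and 39 were called without Col MS replicate 1 and erf114 MeJA replicate 3, a choice made after seeing the data. Between genotypes on MeJA, 1 member, AGP2, was called by DESeq2, by both limma fits, and without Col MS replicate 1 and erf114 MS replicate 3 (also chosen after seeing the data), and 0 to 1 with 1 library left out. With the replicate block 47 and 25 members were called, and in fits of the 2 groups alone the block gave 68 and 20, with 2028 genes in erf114 against 3438. Over all genes, limma called 5352 and 5419 in erf114. Between genotypes on MS 6 genes were called, against 19 by DESeq2, 3 from the 2 groups alone, 3 without those 2 libraries, and 3 to 16 with 1 library left out. On MeJA 70 were called, against 233 by DESeq2, 136 without the same 2 libraries, and 19 to 133 with 1 left out. For the interaction 5 were called, against 41 by DESeq2, 0 with either pair of libraries left out, and 0 to 8 with 1 left out. The cause of these shifts was not tested. Over the 27 members named by rule, in 5 comparisons each, 2864 values kept direction and call, 59 lost the call, 19 gained it and 99 changed sign, of which 0 were called in either setting. Between genotypes on MS the lean of all members toward lower in erf114 was lost without Col MS replicate 1.

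The log2 fold changes that changed sign follow; the first pair out is Col MS replicate 1 and erf114 MS replicate 3, and the second pair is Col MS replicate 1 and erf114 MeJA replicate 3. AGP10 on MeJA in Col was at 0.19, against -0.049 to 0.78 with 1 library left out. AGP10 between genotypes on MS was at -0.53, against 0.034 with the first pair out, 0.059 with the second pair out and -0.77 to 0.059 with 1 library left out. AGP14 between genotypes on MS was at -0.34, against 0.048 with the first pair out, 0.030 with the second pair out and -0.53 to 0.030 with 1 library left out. AGP17 between genotypes on MS was at -0.48, against 0.10 with the first pair out. EXPA1 on MeJA in Col was at 0.14, against -0.058 to 0.60 with 1 library left out. EXPA4 between genotypes on MS was at -0.060, against 0.12 with limma at 0.1, 0.12 with limma at 1, 0.0047 with the 2-group block, 0.40 with the first pair out, 0.32 with the second pair out and -0.25 to 0.32 with 1 library left out. EXPA4 for the interaction was at 0.51, against -0.12 with the second pair out. EXPA9 on MeJA in Col was at -0.22, against 0.00040 with the first pair out, 0.00040 with the second pair out and -0.34 to 0.00040 with 1 library left out. EXPB3 on MeJA in erf114 was at 0.011, against -0.31 with limma at 0.1, -0.30 with limma at 1, -0.029 with a mean FPKM of at least 5, -0.014 with the 2-group block, -0.042 with the first pair out, -0.21 with the second pair out and -0.21 to 0.17 with 1 library left out. EXPB3 between genotypes on MS was at -0.066, against 0.12 with limma at 0.1, 0.12 with limma at 1, 0 with the 2-group block, 0.36 with the first pair out, 0.31 with the second pair out and -0.24 to 0.31 with 1 library left out. EXPB3 for the interaction was at 0.58, against -0.012 with the second pair out. EXT3 between genotypes on MS was at 0.016, against -0.15 to 0.14 with 1 library left out. EXT4 between genotypes on MS was at -0.41, against 0.071 with the first pair out. FLA16 on MeJA in Col was at 0.022, against -0.035 with limma at 0.1, -0.035 with limma at 1 and -0.059 to 0.15 with 1 library left out. FLA9 on MeJA in erf114 was at 0.064, against -0.27 with limma at 0.1, -0.27 with limma at 1, -0.17 with the second pair out and -0.17 to 0.19 with 1 library left out. LRX3 on MeJA in Col was at 0.076, against -0.23 to 0.57 with 1 library left out. PRP39 on MeJA in erf114 was at 0.12, against -0.14 with limma at 0.1 and -0.13 with limma at 1. PRP39 between genotypes on MeJA was at 0.0048, against -0.096 with limma at 0.1, -0.094 with limma at 1, -0.028 with a mean FPKM of at least 5, -0.0054 with 2 groups alone, -0.0041 with the 2-group block, -0.029 with the second pair out and -0.059 to 0.063 with 1 library left out. XTH13 between genotypes on MS was at 0.042, against -0.035 to 0.12 with 1 library left out. XTH13 between genotypes on MeJA was at 0.14, against -0.042 with limma at 0.1, -0.034 with limma at 1, -0.14 with the second pair out and -0.14 to 0.37 with 1 library left out. XTH13 for the interaction was at 0.095, against -0.20 with limma at 0.1, -0.19 with limma at 1, -0.0026 with the first pair out, -0.26 with the second pair out and -0.18 to 0.33 with 1 library left out. XTH17 between genotypes on MeJA was at -0.0097, against 0.00080 with DESeq2, 0.00030 with median-of-ratios scaling, 0.043 with the second pair out and -0.050 to 0.043 with 1 library left out. XTH31 for the interaction was at 0.18, against -0.061 with limma at 0.1 and -0.062 with limma at 1. XTH33 between genotypes on MS was at -0.085, against 0.040 with limma at 0.1, 0.039 with limma at 1, 0.18 with the first pair out, 0.094 with the second pair out and -0.19 to 0.094 with 1 library left out. XTH9 between genotypes on MS was at -0.064, against 0.033 with limma at 0.1, 0.033 with limma at 1, 0.061 with the first pair out, 0.053 with the second pair out and -0.18 to 0.053 with 1 library left out.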
